A study of Homo sapiens with 6 samples.

Results

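The BCL2 family of apoptosis regulators was followed through 10 genes in paclitaxel (PTX)-resistant breast cancer cells sorted on aldehyde dehydrogenase (ALDH) activity. The genes were chosen by symbol, with earlier results of these data known, and make up 10 of the 59480 genes to which the counted transcripts were summed. BCL2, BCL2L1 and MCL1 protect the cell, BAX and BAK1 open the mitochondrion, and BCL2L11, BBC3, PMAIP1, BID and BAD carry the death signal to them. All 10 were on file, and 9 had enough counts to be tested, the exception being BBC3.

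The cells were PTX-resistant MDA-MB-231, an established human triple-negative breast cancer line, and PTX is a drug that stabilises microtubules. The 3 libraries titled BCSC (breast cancer stem cells) came from ALDH+ cells and the 3 titled non-BCSC from ALDH− cells, and a stain for dead and late apoptotic cells was used to keep these out of the sort. Both groups carried the drug resistance, and no drug-sensitive cells are compared here. Nothing in the labels says that the 3 libraries of a group were grown separately, so p-values measure only the spread between these libraries.

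Total counts ran from 15925943 to 21215352 in BCSC and from 9898588 to 12263667 in non-BCSC, and the upper limit for a gene with 0 counts is 3 counts, or 0.141 to 0.303 CPM (counts per library scaled to one total), by counting error only. In bulk RNA fewer cells of a type and less RNA per cell cannot be told apart. The markers of MDA-MB-231 summed to 6337 to 7449 CPM in BCSC and 4012 to 5418 CPM in non-BCSC, with 4 of 6 higher and 1 lower. The summed markers of other cells were higher in non-BCSC for each of 3 lists. The 5 leukocyte markers summed to 0.848 to 2.60 CPM in BCSC and 16.3 to 29.8 CPM in non-BCSC, the 7 matched fibroblast and endothelial markers to 82.3 to 99.7 and 139.9 to 174 CPM, and the 6 luminal and epithelial markers to 21.6 to 26.4 and 31.9 to 58.9 CPM with KRT19 at 0 in 5 libraries. Lower in BCSC by the test were 1 of 2 tested leukocyte, 4 of 7 fibroblast and endothelial and 1 of 4 luminal and epithelial markers, and 0 were higher. GATA3, a luminal marker, lay above in all 3 BCSC libraries (14.5 against 9.74 CPM on average, adjusted p = 0.148). Olfactory receptor genes, which breast cells do not use, took 39.6 to 152 CPM in BCSC and 539.5 to 1231 CPM in non-BCSC. They serve here as a measure of background. PTPRC held 13.2, 22.6 and 20.7 CPM of the leukocyte sum in non-BCSC 1, 2 and 3. In non-BCSC, PTPRC stood per kb at 6.23 to 11.3 times the background, and the other leukocyte markers at 0 to 2.09 times. There LUM, COL3A1 and VWF stood at 0.376 to 2.16 times, and the other fibroblast and endothelial markers at 5.53 to 54.4 times. KRT19 and EPCAM stood at 0 to 1.58 times, and the rest of their list at 3.19 times or more. The part of background in the marker sums was not tested. GC content moved with the comparison across all genes: the median log2 fold change (BCSC over non-BCSC) was −0.65 in the quintile of genes with the lowest GC content and 1.01 in the quintile with the highest. The part of these measures in the results was not tested.

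Apoptosis through the mitochondrion is decided by which BCL2 proteins bind each other. BAX and BAK1 form pores in the outer membrane and let cytochrome c out, antiapoptotic members hold them and the BH3-only proteins in check, and BH3-only proteins, made or activated under stress, either occupy the antiapoptotic members or activate the effectors directly. PTX arrests cells in mitosis, where loss of the short-lived MCL1 protein is a known step towards death. Splicing matters in this family, because BCL2L1 is made in a long protective form and a short form that promotes death.

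The sequences that separate the splice forms of BCL2L1 and BAK1 are shown here because the libraries divided their counts between these forms. Each holds 15 bases on either side of the boundary, 5′ to 3′, with the shared exon in lower case and the bases after the boundary in capitals. They come from the GENCODE transcripts on GRCh37, and their positions within the transcripts are 740 to 769 in BCL2L1-203, 847 to 876 in BCL2L1-202, 619 to 648 in BAK1-201 and 636 to 665 in BAK1-202.
BCL2L1-203: cagagctttgaacagGTAGTGAATGAACTC
BCL2L1-202: cagagctttgaacagGATACTTTTGTGGAA
BAK1-201: caagattgccaccagCCTGTTTGAGAGTGG
BAK1-202: caagattgccaccagGCCAGCAGCAACACC
In BCL2L1-203 the exon runs on past an inner splice donor and encodes Bcl-xL, of 233 residues. In BCL2L1-202 that donor is used, which leaves out 189 bases and 63 residues and gives Bcl-xS, of 170 residues. In BAK1-202 an exon of 20 bases is inserted, and the annotated protein has 153 residues in place of the 211 of BAK1-201.

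MCL1, the short-lived protector that binds BAK1 and the BH3-only proteins BIM and NOXA, was the most abundant antiapoptotic member and was higher in BCSC. The gene (ENSG00000143384.14, chr1:150574558-150579610 on GRCh38.p14, minus strand) had 335, 378 and 393 normalized CPM in BCSC 1, 2 and 3, against 242, 254 and 263 in non-BCSC 1, 2 and 3. All 3 BCSC libraries lay above all 3 non-BCSC libraries. The means were 369 ± 30.0 and 253 ± 10.7 CPM (SD, n = 3 each), a log2 fold change of 0.54 ± 0.10 (SE) that passed the test (edgeR quasi-likelihood, adjusted p = 0.00468). Once the background was removed, and the genes were filtered and scaled anew, the value was 0.32 and no longer passed (adjusted p = 0.0594). Per kb, MCL1 stood at 60.2 to 118 times the background in non-BCSC and at least 683 times in BCSC. The part of the new scaling in this value was not tested.

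The higher MCL1 counts of BCSC lay on transcripts annotated as keeping an intron, for which the annotation gives no protein. MCL1-203, annotated with 2 exons, had 3085, 1098 and 2013 counts in BCSC, against 282, 271 and 457 in non-BCSC. MCL1-206, also annotated with 2 exons, had 3056, 3771 and 4040 counts against 1813, 884 and 1383. The fully spliced MCL1-202, which encodes the 350-residue protein, went the other way, with 656, 919 and 431 counts in BCSC, against 833, 1718 and 902 in non-BCSC, before scaling for the deeper BCSC libraries.

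Intron-keeping transcripts therefore took 90.2%, 84.0% and 93.1% of the MCL1 counts in BCSC, against 71.6%, 40.2% and 67.1% in non-BCSC. The groups did not overlap, and the exact two-sided permutation p was 0.1, the smallest that 3 against 3 can give (0.3 adjusted over the 6 transcript groups compared). The same separation was seen in 9.64% of the 4971 other genes with both kinds of transcript and at least 100 counts in every library, and 9.84% were separated in the opposite direction. Over all genes with both kinds of transcript this share overlapped between the groups, at 13.3% to 14.9% in BCSC and 13.1% to 15.2% in non-BCSC. None of the 3 MCL1 transcripts passed the test over all 45898 transcripts, at log2 fold changes of 2.02 ± 0.42 for MCL1-203 (adjusted p = 0.0774), 0.90 ± 0.31 for MCL1-206 (adjusted p = 0.222) and −1.30 ± 0.46 for MCL1-202 (adjusted p = 0.232). Summed over protein-coding transcripts only, the MCL1 value turned to −1.36 and did not pass (adjusted p = 0.0547). MCL1-201, of 271 residues, which lacks the middle exon and promotes death, had 5 counts in BCSC 1 and 0 in the other 5 libraries.

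BCL2L1, which encodes Bcl-xL, showed the firmest rise among the members. The gene (ENSG00000171552.14, chr20:31664452-31723963 on GRCh38.p14, minus strand) had 123, 99.6 and 87.7 CPM in BCSC, against 46.5, 25.2 and 25.6 in non-BCSC. The groups did not overlap, and the means of 104 ± 18.0 and 32.4 ± 12.2 CPM differed 3.19-fold. The log2 fold change was 1.67 ± 0.25 (edgeR, adjusted p = 0.00199), and it passed in each of the 16 alternative fits. Its GC content of 56.5% put it in the quintile of genes whose median log2 fold change was 1.01, and with GC content and length corrected its value fell to 0.52 (adjusted p = 0.0332). The lncRNA ABALON lies on the opposite strand over 1735 of the 4197 exonic bases of BCL2L1, with 6 to 66 counts per library, and whether strand was used in counting is not stated.

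Transcripts for the 233-residue Bcl-xL took 93.1%, 57.8% and 97.9% of the BCL2L1 counts in BCSC, against 100%, 84.6% and 98.9% in non-BCSC, and the groups overlapped. Transcripts for the short Bcl-xS had 118, 633 and 0 counts in BCSC 1, 2 and 3, against 0 in every non-BCSC library. In BCSC 2 they made up 41.5% of the gene's counts, against 4.72% in BCSC 1. The presence of Bcl-xS thus rested on 2 of the 3 BCSC libraries, mostly on 1, and the groups overlapped at 0. The exact permutation p of the share was 0.4 (adjusted 0.6), in a design that cannot go below 0.1.

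BCL2, the founding protector of the family, was low in these cells. The gene (ENSG00000171791.14, chr18:63123346-63320090 on GRCh38.p14, minus strand) had 13.0, 14.2 and 11.5 CPM in BCSC, against 3.80, 5.65 and 11.3 in non-BCSC, so that non-BCSC 3 came up to just under the lowest BCSC library. The means were 12.9 ± 1.34 and 6.92 ± 3.91 CPM, and the log2 fold change of 0.90 ± 0.42 did not pass (edgeR, adjusted p = 0.131). It passed without non-BCSC 3, at 1.47 (adjusted p = 0.0314), and with background removed, at 2.52 (adjusted p = 0.0438). Per kb, BCL2 stood at 1.09 to 1.52 times the background in non-BCSC and at least 11.7 times in BCSC. BCL2-202, of 239 residues, took 63.5%, 59.4% and 45.8% of the counts in BCSC, against 43.5%, 23.4% and 44.1% in non-BCSC, while the single-exon BCL2-203, of 205 residues, was the leading transcript in each non-BCSC library (exact p = 0.1 for either share, 0.217 adjusted over 13 transcripts).

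**Figure D1:**
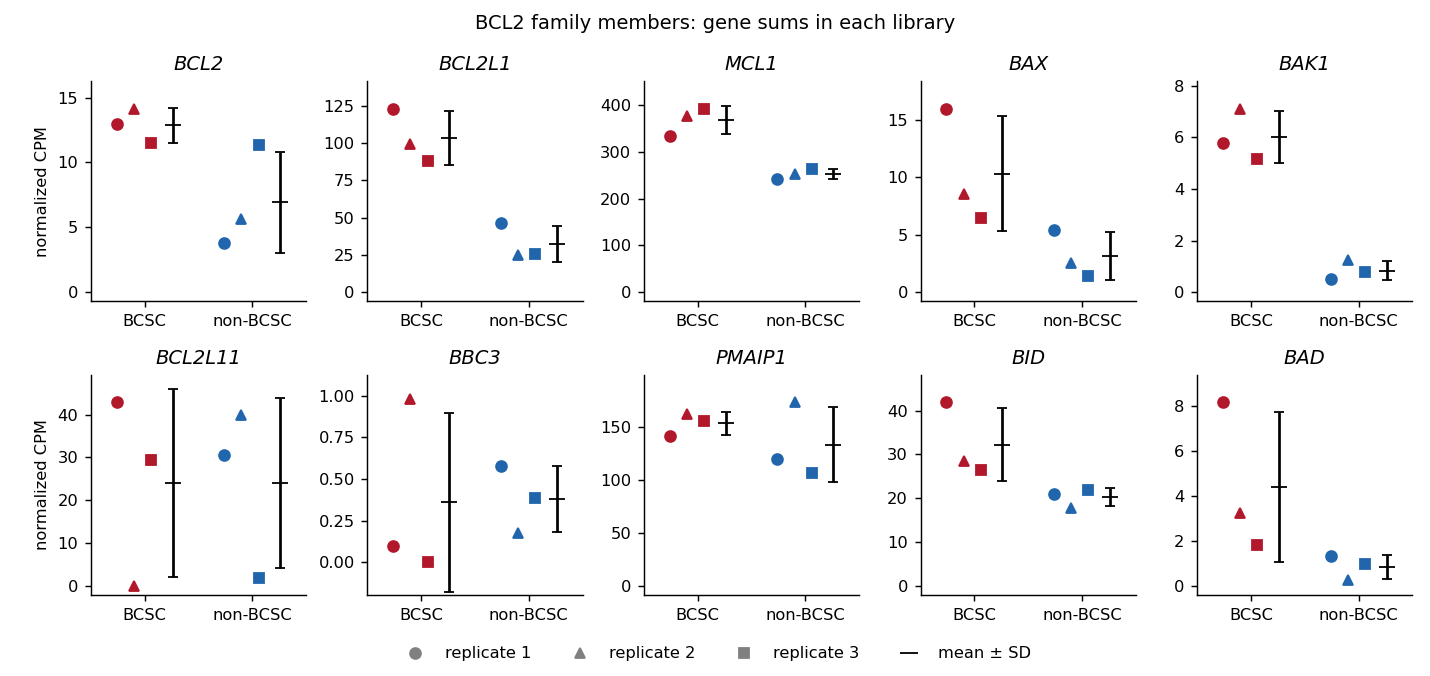
Normalized CPM (y axis, a separate linear scale per gene) of the 10 members in the 3 BCSC and 3 non-BCSC libraries, with symbols for the replicates and the mean ± SD in black. All 3 BCSC points lie above all non-BCSC points for 7 genes, BCL2 by the narrowest gap (11.5 against 11.3 CPM), and BCL2L11 drops to 0 in BCSC 2 and 1.82 CPM in non-BCSC 3.

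BAK1 and BAX, the pore-forming effectors, were low and higher in BCSC. BAK1 (ENSG00000030110.14, chr6:33572552-33580276 on GRCh38.p14, minus strand) had 117, 109 and 85 counts in BCSC, against 6, 14 and 8 in non-BCSC, or 5.76, 7.11 and 5.14 CPM against 0.495, 1.24 and 0.767. The groups lay far apart, with means of 6.005 ± 1.01 and 0.833 ± 0.375 CPM, a 7.21-fold difference. The log2 fold change of 2.84 ± 0.63 was the largest of the 9 tested members (edgeR, adjusted p = 0.0106). Per kb BAK1 stood at 0.239 to 0.641 times the background in non-BCSC, so its level there was no higher than that of genes the cells do not use. BAK1 has a GC content of 58.8%, and with GC content and length corrected the value was 1.42 and did not pass (adjusted p = 0.109). It also did not pass without BCSC 2, at 2.73 (adjusted p = 0.0576).

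BCSC 2 also differed in the form of BAK1 counted. BAK1-201, of 211 residues, had 108 of the 109 counts there and 0 in the other 5 libraries, whereas BAK1-202 with the short exon had 117 and 85 counts in BCSC 1 and 3, 1 in BCSC 2, and all 6, 14 and 8 counts of non-BCSC. The annotated forms are 2170 (BAK1-201) and 2212 (BAK1-202) bases long, so they differ by more than the 20 bases of the short exon. How the counting divided reads between them is not given.

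BAX (ENSG00000087088.21, chr19:48954875-48961798 on GRCh38.p14, plus strand) had 16.01, 8.55 and 6.47 CPM in BCSC, against 5.45, 2.56 and 1.44 in non-BCSC. The groups did not overlap, but replicate 1 was the highest in both, and the means were 10.3 ± 5.02 and 3.15 ± 2.07 CPM. The log2 fold change of 1.71 ± 0.57 passed narrowly (edgeR, adjusted p = 0.0472). BAX lost the call in 9 of the 16 alternatives, among them without BCSC 1 (adjusted p = 0.209), BCSC 2 (0.0924), non-BCSC 2 (0.125) or non-BCSC 3 (0.111). Its GC content was 60.2%, and with GC content and length corrected the value was 0.25 (adjusted p = 0.67). The protein-coding BAX-201, of 218 residues, had 182, 80 and 40 counts in BCSC, against 16, 4 and 1 in non-BCSC. Intron-keeping transcripts took 23.4%, 38.9% and 52.3% of the BAX counts in BCSC, against 75.8%, 72.4% and 93.3% in non-BCSC, the opposite order to MCL1 (exact p = 0.1, adjusted 0.3). In non-BCSC these shares rest on only 50 of 66, 21 of 29 and 14 of 15 counts. This separation was seen in 9.84% of the 4971 other genes with at least 100 counts in every library, a level that BAX did not reach in non-BCSC. BAX-202, of 192 residues, had 63 counts in BCSC 1 and 0 elsewhere.

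None of the 4 tested BH3-only genes passed in edgeR, where BID and BAD had an unadjusted p under 0.05, and DESeq2 passed BAD. PMAIP1, which encodes NOXA, a partner that sends MCL1 to degradation, was the most abundant BH3-only gene. The gene (ENSG00000141682.12, chr18:59899996-59904305 on GRCh38.p14, plus strand) had 142, 163 and 156 CPM in BCSC, against 120, 173 and 107 in non-BCSC. The groups overlapped through non-BCSC 2, the highest library of all. The log2 fold change was 0.20 ± 0.17 (edgeR, adjusted p = 0.393). PMAIP1 had the lowest GC content of the tested members, 36.8%, in the quintile of genes whose median was −0.65, and with GC content and length corrected its value was 1.55 and passed (adjusted p = 0.000789). It also passed without non-BCSC 2, at 0.48 (adjusted p = 0.0461), and stood at −0.02 with background removed and the genes scaled anew. Per kb, PMAIP1 stood at 55.2 to 149 times the background in non-BCSC. PMAIP1-202, for the 54-residue NOXA, took 97.3% to 99.1% of the counts in BCSC, against 100% in non-BCSC. The intron-keeping PMAIP1-203 made up most of the rest with 52, 35 and 23 counts in BCSC and 0 in each non-BCSC library (named after its values were seen; edgeR adjusted p = 0.0731).

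BID, which caspase 8 cleaves to link death receptors to the mitochondrion, had 41.9, 28.4 and 26.5 CPM in BCSC, against 21.0, 17.8 and 22.0 in non-BCSC (ENSG00000015475.19, chr22:17734138-17774665 on GRCh38.p14, minus strand). Every BCSC library was higher, by means of 32.2 ± 8.39 against 20.3 ± 2.16 CPM. The log2 fold change of 0.67 ± 0.23 did not pass (edgeR, adjusted p = 0.0555). It passed at 0.77 with no filter on low counts (adjusted p = 0.0221) and at 0.90 for protein-coding transcripts only (adjusted p = 0.0462). BID-211, for the 195-residue protein, had 515, 361 and 424 counts in BCSC, against 144, 174 and 0 in non-BCSC. In non-BCSC 3 its place was taken by BID-201, of 241 residues, with 167 counts.

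BAD, a sensitiser that binds Bcl-xL and BCL2 when it is not phosphorylated, had 166, 50 and 30 counts in BCSC, against 16, 3 and 10 in non-BCSC (ENSG00000002330.14, chr11:64269828-64284704 on GRCh38.p14, minus strand). In CPM these were 8.18, 3.26 and 1.81 against 1.32, 0.265 and 0.959, with no overlap but a wide spread in BCSC. The log2 fold change of 2.37 ± 0.88 did not pass (edgeR, adjusted p = 0.066), and it did pass without BCSC 3 (2.75, adjusted p = 0.0478), with no filter on low counts (2.48, adjusted p = 0.0492) and by DESeq2 (2.33, adjusted p = 0.0348). Per kb, BAD stood at 0.470 to 3.02 times the background in non-BCSC and at least 14.7 times in BCSC, and with background removed its value was 3.56 (adjusted p = 0.119). BAD has the highest GC content of the tested members, 66.1%, and with GC content and length corrected its value was 0.36 (adjusted p = 0.737). GPR137, on the opposite strand, shares 404 of the 1708 exonic bases of BAD and had 472, 235 and 210 counts in BCSC, against 37, 49 and 39 in non-BCSC.

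BCL2L11, which encodes BIM, the activator that binds every antiapoptotic member, gave no usable fold. The gene (ENSG00000153094.25, chr2:111120914-111168445 on GRCh38.p14, plus strand) had 870, 0 and 487 counts in BCSC, against 371, 452 and 19 in non-BCSC. The mean levels came to 24.1 ± 21.9 and 24.1 ± 19.9 CPM, with a library far below the others in each group, and the log2 fold change was 0.00 ± 1.69. Without BCSC 2 the value was 0.60 and without non-BCSC 3 it was −0.52, neither of which passed (edgeR, adjusted p = 0.716 and 0.832). Of 8640 genes with at least 200 counts in both other BCSC libraries, BCL2L11 was 1 of 4 with at most 5 counts in BCSC 2. The lncRNA MIR4435-2HG on the opposite strand, which shares 727 of the 6742 exonic bases, kept 3334 counts in BCSC 2 beside 4503 and 3275 in BCSC 1 and 3. BCL2L11-204, for the 198-residue BIM-EL, had 550, 0 and 475 counts in BCSC, against 371, 446 and 0 in non-BCSC, and BCL2L11-201, of 138 residues, had 226 in BCSC 1 only. BCL2L11 is therefore only said to be listed at 0 in BCSC 2.

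BBC3, which encodes PUMA, a BH3-only protein made after DNA damage, had 2, 15 and 0 counts in BCSC, against 7, 2 and 4 in non-BCSC (ENSG00000105327.18, chr19:47220824-47232860 on GRCh38.p14, minus strand). It was removed by the filter on low counts, and no difference was detectable at this depth.

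Of the 9 tested members, 4 passed as higher in BCSC (BAK1, BAX, BCL2L1 and MCL1), where 15.4% of all 20423 genes tested did, and 3 of these were over 2-fold higher (BAK1, BAX and BCL2L1), where 8.89% of all genes were. Without BCSC 2 these counts were 2 and 1. None passed as lower, against 14.7% of all genes, or 11.4% at over 2-fold lower. In the quintile of genes with the highest GC content, which holds BAK1, BAX, BCL2L1 and BAD, 33.6% passed as higher and 1.25% as lower. In the quintile that holds MCL1, BCL2 and BCL2L11 these shares were 10.8% and 14.7%. Neither edgeR nor DESeq2 called a member lower, and at an unadjusted p under 0.05 the edgeR counts were 6 higher and 0 lower, where 20.9% and 22.4% of all genes were. By DESeq2 the genes as a whole split differently, into 3215 higher and 5684 lower of 48740, against 3136 and 2999 by edgeR. All 3 BCSC libraries lay above all 3 non-BCSC libraries for 7 of the 9, against 24.2% of all genes, and below for 0, against 28.0%. The median log2 fold change was 0.90 over the tested members and −0.05 over all genes. The members were chosen with earlier results of these data known, which limits these comparisons with all genes. Of the 87 member transcripts on file, 20 were tested, and 0 passed in edgeR, where 0.81% of all transcripts passed in either direction. At an unadjusted p under 0.05, 4 were higher and 1 lower, where 8.91% and 8.5% of all transcripts were, and DESeq2 passed 1, PMAIP1-203.

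The size of the fold ran with GC content among the members as it did among all genes. The 4 tested members over 55% GC, which are BAD, BAX, BAK1 and BCL2L1, had the 4 largest log2 fold changes, 1.67 to 2.84, and all 4 lie in the quintile of genes whose median was 1.01. The other 5 members, at 36.8% to 48.4% GC, had values from 0.00 to 0.90. The point value of each of the 9 was above the median of its own quintile: MCL1 and BCL2 at 0.54 and 0.90 beside −0.25, BID at 0.67 beside 0.25, and PMAIP1 at 0.20 beside −0.65. BCL2L11, at 0.00 ± 1.69 beside −0.25, gave no usable fold, and the distance of members from these medians was not tested. With GC content and length corrected, BCL2L1, MCL1 (0.72, adjusted p = 0.000413) and PMAIP1 passed, and BAK1 and BAX did not.

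**Figure D2:**
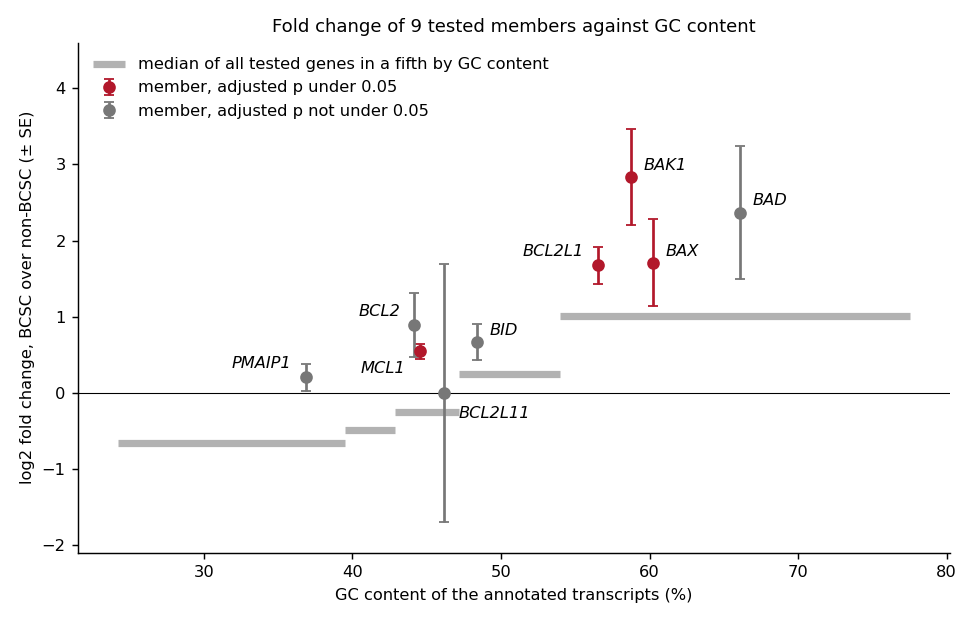
Log2 fold change ± SE (y axis) of the 9 tested members against the GC content of their annotated transcripts (x axis, %), with members that passed in red. Grey bars give the median of all tested genes in each quintile by GC content, from −0.65 to 1.01. The point of every member lies above the bar of its quintile, which was not tested, and the SE of BCL2L11 (1.69) spans its bar.

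**Figure D3:**
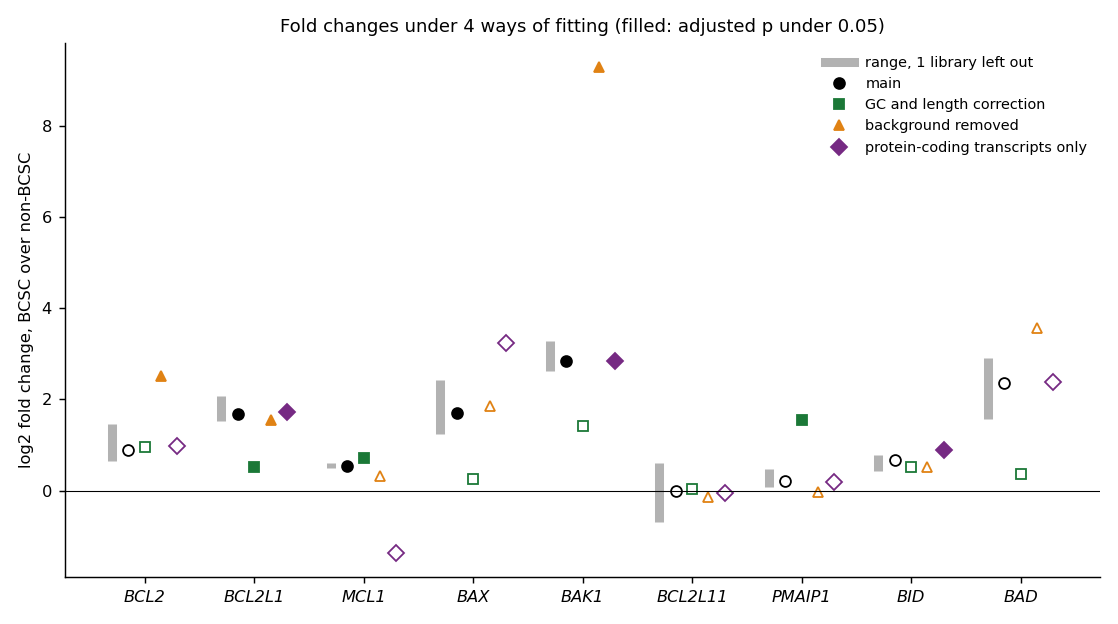
Log2 fold change (y axis) of each tested member in the fit as reported, with GC content and length corrected, with background removed and with protein-coding transcripts only; filled symbols passed and grey bars span the fits with 1 library left out. BCL2L1 passed in all 4, and MCL1 fell to −1.36 over protein-coding transcripts; the BAK1 value with background removed (9.29) is set against near-empty non-BCSC libraries and is no estimate of a fold.

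Compared per length, as TPM (counts per kb of transcript, scaled to the same sum in every library), the family was led by a protector and its antagonist. In BCSC the order ran MCL1 (217 ± 26.0 TPM), PMAIP1 (215 ± 19.6), BCL2L1 (103 ± 18.0), BID (39.2 ± 9.77), BCL2L11 (25.5 ± 28.9), BAX (25.1 ± 10.6), BAD (11.3 ± 8.0), BAK1 (7.12 ± 1.25), BCL2 (5.48 ± 0.427) and BBC3 (0.528 ± 0.795). Libraries of MCL1 and PMAIP1 overlapped, as did each neighbouring pair from BID down to BAK1, while BCL2L1 stood clear of both neighbours. In non-BCSC the leaders were PMAIP1 (184 ± 47.5) and MCL1 (155 ± 13.5), which overlapped, followed by BCL2L1 (31.2 ± 11.7) and BID (23.4 ± 1.99), which also overlapped. BCL2L11 (16.1 ± 6.85), BAX (7.39 ± 4.30), BCL2 (3.13 ± 1.85), BAD (2.73 ± 1.13), BAK1 (0.991 ± 0.450) and BBC3 (0.664 ± 0.448) came below. The place of BCL2L11 is uncertain, because its 9.73 TPM in non-BCSC 3 came from 19 counts, 15 of them on the 443-base BCL2L11-202. In non-BCSC 1 its 15.1 TPM came from 371 counts. The MCL1 level rests mostly on the intron-keeping transcripts described above.

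Summed by role, the antiapoptotic genes came to 326 ± 11.9 TPM in BCSC and 190 ± 6.70 in non-BCSC, the effectors to 32.3 ± 10.4 and 8.38 ± 4.14, and the BH3-only genes to 291 ± 25.4 and 226 ± 50.7. All 3 BCSC libraries were higher for the first 2 roles, and the BH3-only sums overlapped, because non-BCSC 2 held 285 TPM. As shares of the family total, the antiapoptotic genes took 46.2% to 52.7% in BCSC and 38.7% to 50.2% in non-BCSC, with overlap. The effectors took 3.67% to 6.45% in BCSC and 1.01% to 3.04% in non-BCSC, without overlap. The BH3-only genes took 42.6% to 47.3% in BCSC and 48.8% to 59.5% in non-BCSC, also without overlap. The BCL2L1 level was 0.352 to 0.636 of the MCL1 level in BCSC and 0.143 to 0.319 in non-BCSC, whereas BAX relative to BCL2L1 overlapped, at 0.20 to 0.310 and 0.116 to 0.329. The BAK1 level was 0.0263 to 0.0382 of the MCL1 level in BCSC and 0.00403 to 0.00915 in non-BCSC, where BAK1 lay below the background. The ratios of BAX to BCL2 and of MCL1 to PMAIP1 overlapped. MCL1 made up most of the antiapoptotic sum, at 217 TPM in BCSC and 155 in non-BCSC. Intron-keeping transcripts with no annotated protein took 84.0% to 93.1% of its counts in BCSC and 40.2% to 71.6% in non-BCSC. Over protein-coding transcripts only, its log2 fold change was −1.36 (edgeR, adjusted p = 0.0547). The sum, the shares and the ratios with MCL1 therefore do not measure protein-coding transcripts alone.

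**Figure D4:**
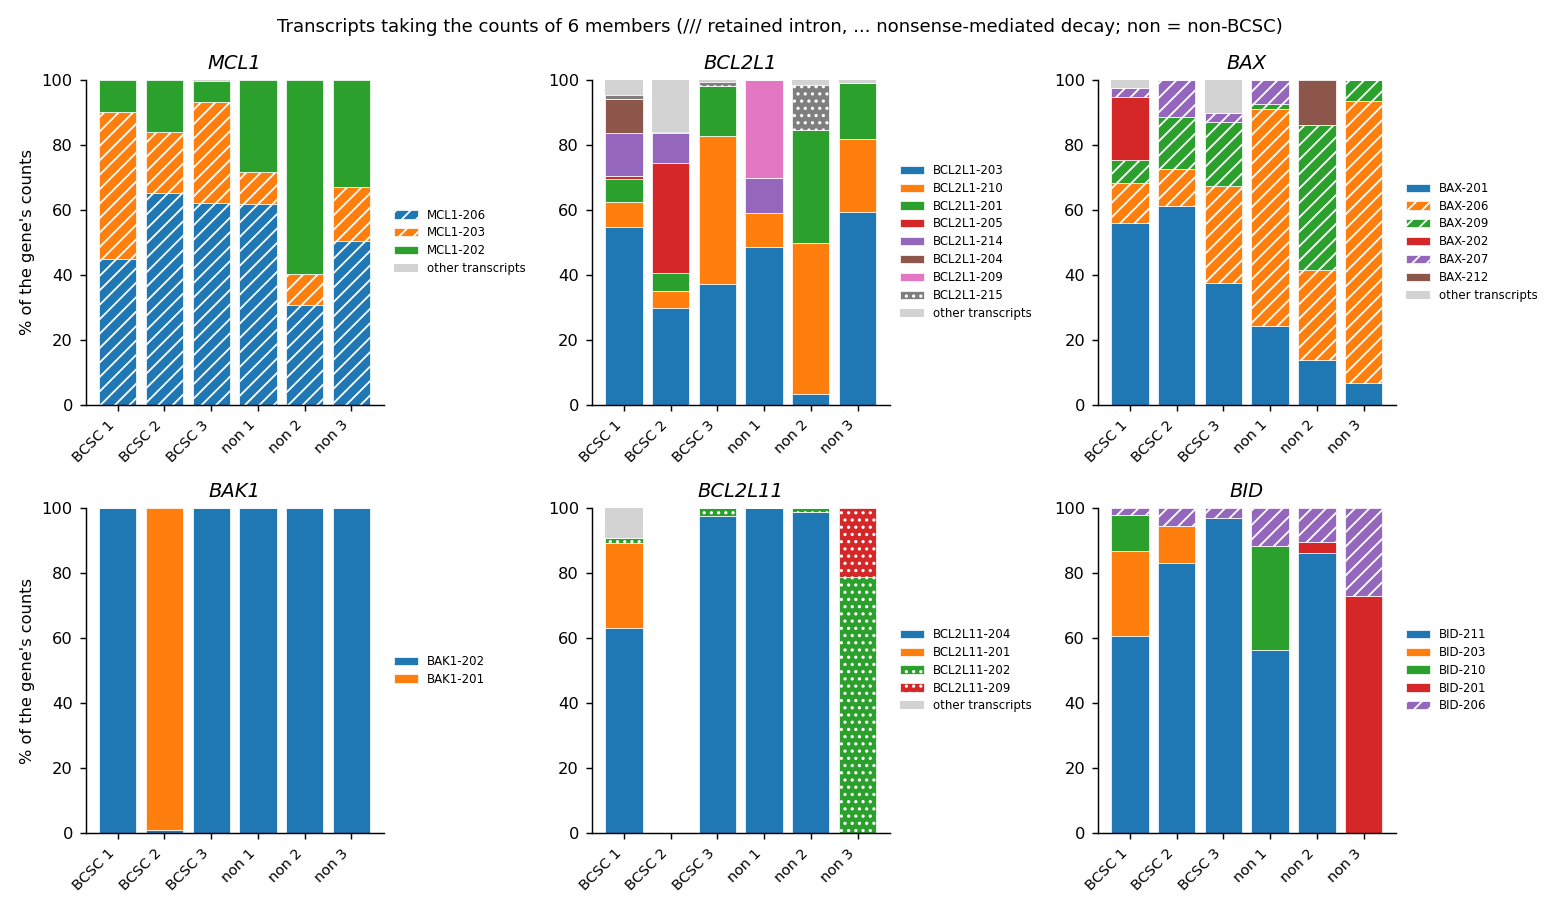
Share of each gene's counts (y axis, %) taken by its transcripts in each library, for 6 members; hatched transcripts keep an intron, dotted ones are annotated for nonsense-mediated decay, and BCL2L11 has no bar in BCSC 2 where it had 0 counts. The intron-keeping shares of MCL1 and BAX lie in opposite order between the groups, with only 15 to 66 BAX counts per non-BCSC library, and BAK1 changes form in BCSC 2 alone.

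The other genes of the pathway were read from the same fit as a list of 59, of which 54 were tested, 18 passed as higher and 7 as lower, with a median log2 fold change of 0.40. These are 33.3% higher and 13.0% lower of those tested, against 15.4% and 14.7% of all genes tested and their median of −0.05, so the lower share was near that of all genes. The lower count was 3 without BCSC 1, BCSC 2 or non-BCSC 2. This list too was chosen with earlier results of these data known. Where values of listed genes are given with GC content corrected, length was corrected in the same fit, and the part of each cannot be told apart. Among the 13 other BCL2 family genes, 9 were tested. BCL2L13, a mitochondrial membrane member, had 1839, 1108 and 1197 counts in BCSC, against 578, 543 and 503 in non-BCSC, and its log2 fold change of 0.71 ± 0.14 passed (edgeR, adjusted p = 0.00738). BCL2L2, the protector Bcl-w, passed narrowly at 0.85 ± 0.28 (adjusted p = 0.0466), lost the call in 12 of the 16 alternatives, among them without BCSC 1, 2 or 3 or non-BCSC 1 or 2 (adjusted p from 0.0627 to 0.142), and stood at −0.03 with GC content corrected. BNIP3L, the mitophagy receptor NIX, had the firmest fall of the family, at 316 ± 49.8 CPM in BCSC and 886 ± 107 CPM in non-BCSC, a log2 fold change of −1.49 ± 0.14 (adjusted p = 0.000236). With GC content corrected BNIP3L was at −0.58 and still passed (adjusted p = 0.0163). Its close relative BNIP3 was level, at −0.14 ± 0.15 (adjusted p = 0.514). BCL2L15 fell by 1.93 ± 0.64 on the log2 scale from low counts of 24 to 61 in BCSC and 39 to 117 in non-BCSC (adjusted p = 0.0472), and lost its call in 7 of the 16 alternatives, among them without BCSC 1 or 2 or non-BCSC 2 or 3 (adjusted p from 0.139 to 0.148).

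The remaining family genes were scarce. BCL2L12 (1.41, adjusted p = 0.106), BIK (2.41, adjusted p = 0.236), HRK (0.98, adjusted p = 0.427) and BCL2L14 (−1.28, adjusted p = 0.509) did not pass. BCL2A1 with 0 to 29 counts, BMF with 0 to 14, BCL2L10 with 0 to 8 and BOK, the third pore former, with 0 to 3 were not tested.

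Downstream of the pore, 2 of 10 genes rose and 1 fell, shares near the 15.4% and 14.7% of all genes. CYCS, cytochrome c itself, was at 0.46 ± 0.12 (adjusted p = 0.02), and did not pass without BCSC 3 (adjusted p = 0.0527), without non-BCSC 2 (0.0625) or with background removed (0.216). HTRA2, a protease released with it, was at 1.41 ± 0.32 (adjusted p = 0.0108), at 0.10 with GC content corrected and not past the threshold without BCSC 1 (adjusted p = 0.0582). VDAC1, the main outer-membrane channel, was lower at −0.48 ± 0.09 (adjusted p = 0.00632). APAF1 and CASP9, which build the apoptosome, were at 0.33 ± 0.16 and 1.34 ± 0.49 and did not pass (adjusted p = 0.135 and 0.0657). CASP6, an executioner caspase, was at 0.58 and did not pass (adjusted p = 0.224).

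Of the 5 caspase inhibitors 3 rose, where 15.4% of all genes did, and 0 fell, where 14.7% did. BIRC3, which encodes cIAP2, had 76.6 ± 17.6 CPM in BCSC and 27.3 ± 2.11 in non-BCSC, a log2 fold change of 1.49 ± 0.20 (adjusted p = 0.00113). BIRC5, which encodes survivin and is made in mitosis, was at 1.096 ± 0.14 (adjusted p = 0.00115), and both passed in all 16 alternatives. BIRC2 was at 0.55 ± 0.13 (adjusted p = 0.0122) and not past the threshold with background removed (0.33, adjusted p = 0.0928). XIAP, a direct inhibitor of CASP9, was at 0.46 ± 0.16 (adjusted p = 0.052). In the death receptor arm 1 of 6 tested genes passed as higher, near the 15.4% of all genes. TNFRSF10B, the TRAIL receptor DR5, had 160 ± 16.5 CPM in BCSC and 73.2 ± 8.09 in non-BCSC, at 1.12 ± 0.13 (adjusted p = 0.000701) and past the threshold in all 16 alternatives. FAS went from 0 and 14 counts to 206 within non-BCSC, and CASP8, which cleaves BID, was level at −0.23 ± 0.17 (adjusted p = 0.322).

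Among 8 transcription factors known to drive BH3-only genes, 3 rose and 1 fell, the latter near the 14.7% of all genes and the former above the 15.4%. TP73 rose by 2.77 ± 0.56 on the log2 scale (adjusted p = 0.00742), from 0.182 to 1.64 times the background per kb in non-BCSC to at least 22.5 times in BCSC, and stood at 4.52 with background removed. E2F1 rose by 1.92 ± 0.39 (adjusted p = 0.0077) and JUN by 0.87 ± 0.20 (adjusted p = 0.0131). TP63 fell by 1.47 ± 0.27 (adjusted p = 0.00465). With GC content corrected TP63 (−1.21, adjusted p = 0.00307) still passed, whereas TP73 (1.095, adjusted p = 0.151) and E2F1 (0.23, adjusted p = 0.491) did not and JUN turned to −0.25. Without BCSC 1 JUN was also short of the threshold (adjusted p = 0.0584). E2F1 was at 1.27 to 5.29 times the background in non-BCSC. FOXO1, FOXO3, DDIT3 and ATF4 did not pass, at −0.48, 0.15, 0.98 and 0.26.

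The genes that act on the MCL1 and BAD proteins moved in both directions. HUWE1, a ubiquitin ligase for MCL1, was higher at 0.67 ± 0.13 (adjusted p = 0.00524), and FBXW7, which marks MCL1 for degradation in mitotic arrest, was lower at −0.44 ± 0.13 (adjusted p = 0.0303). With GC content corrected these were 0.18 and −0.11, neither of which passed, and FBXW7 also lost its call without BCSC 1, 2 or 3 or non-BCSC 2 or 3 (adjusted p from 0.0568 to 0.136). USP9X, which removes ubiquitin from MCL1, was at 0.05 ± 0.08 (adjusted p = 0.671). Of the 11 BAD kinases and binders 6 rose and 2 fell (54.5% and 18.2%, against 15.4% and 14.7% of all genes). The kinases AKT1 and AKT2 were at 1.17 ± 0.23 and 1.001 ± 0.20 (adjusted p = 0.00612 and 0.00762) but turned to −0.31 and −0.29 with GC content corrected. PIM1 was at 1.32 ± 0.37 (adjusted p = 0.0248), and did not pass without BCSC 1 or 2 or non-BCSC 2 or 3 (adjusted p from 0.0651 to 0.105).

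The adaptor proteins that hold phosphorylated BAD in the cytosol split by gene. YWHAH (0.90 ± 0.11, adjusted p = 0.000789), YWHAQ (0.34 ± 0.09, adjusted p = 0.0172) and SFN (1.41 ± 0.35, adjusted p = 0.0152) rose. YWHAG (−0.42 ± 0.10, adjusted p = 0.0116) and YWHAE (−0.37 ± 0.11, adjusted p = 0.0332) fell. YWHAH passed in all 16 alternatives. With GC content corrected SFN turned to −0.33 and YWHAE to 0.19, and SFN was short of the threshold without BCSC 1 (adjusted p = 0.0809) or BCSC 2 (0.0562). YWHAE lost its call without BCSC 1, 2 or 3 or non-BCSC 1 or 2 (adjusted p from 0.067 to 0.173), YWHAG without BCSC 1 or 2 or non-BCSC 1 or 2 (0.051 to 0.0891), and YWHAQ without BCSC 2 (0.0753) or with background removed (0.446).

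**Figure D5:**
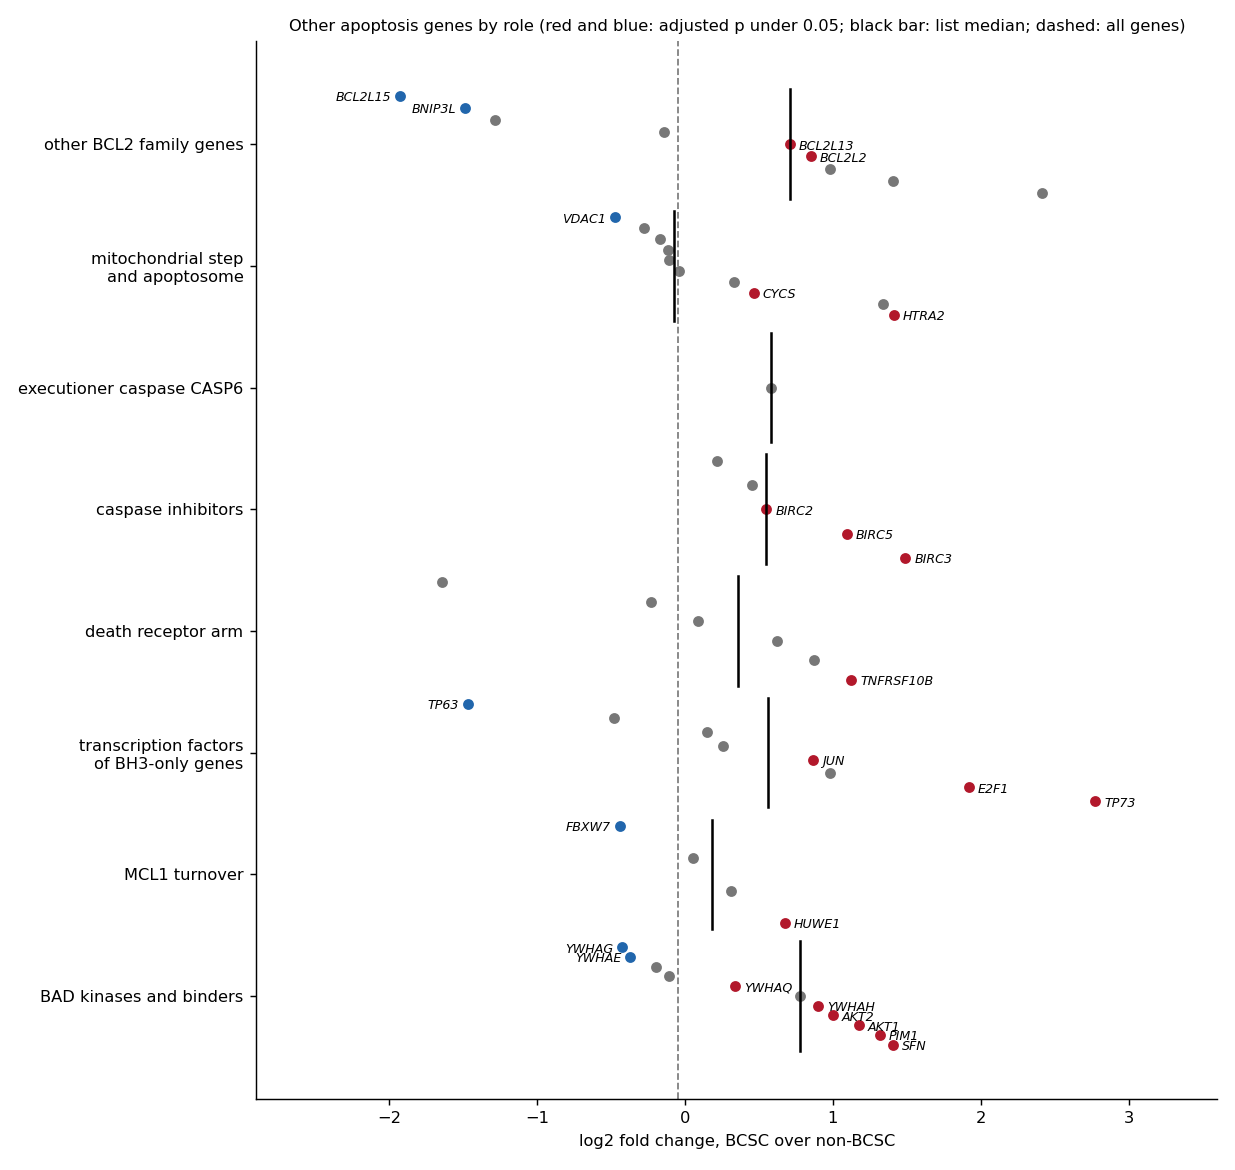
Log2 fold change (x axis) of the 54 tested other apoptosis genes, grouped by role, with genes that passed as higher in red and as lower in blue, a black bar for each list's median and a dashed line for all genes (−0.05). List medians run from −0.07 for the mitochondrial step to 0.78 for the BAD kinases and binders.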

How the data were processed

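The libraries were made from total RNA with random primers and dUTP strand marking. The authors deposited estimated counts (expected counts), given as whole numbers for each transcript and left unscaled; how reads were divided between transcripts is not given in the sources used here. The submitters' processing notes name HISAT2, featureCounts, DESeq2 and hg38, while the study's RNA-seq methods name hg19, so gene positions are RefSeq GRCh38.p14 and only names, classes, lengths and junction sequences came from GENCODE 44 on GRCh37. Of 252618 transcripts, 249618 (98.8%) matched by identifier, 1748 of them by another version, and the 2996 unmatched held 0.271% of the counts.

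Counts were summed per gene symbol and tested over all genes in edgeR 4.0.16 (R 4.3.3), with TMM, filterByExpr, a robust quasi-likelihood fit on group alone and Benjamini-Hochberg adjustment. Passing means an adjusted p under 0.05. The adjusted threshold is that of the study's RNA-seq methods, which add a fold over 2; its text on these libraries names no adjustment of p. Transcripts were tested likewise. CPM use TMM library sizes, TPM are counts per kb scaled to one sum in every library, and errors are SD (n = 3) or SE. To estimate background, counts per kb over 406 olfactory receptor genes were taken in each library. They were multiplied by the mean length of a gene's annotated transcripts, not weighted by counts. A gene whose counts lie on longer transcripts thus gets a higher multiple of background. For BAD the mean length was 640 bases, while BAD-203, its main transcript in BCSC, has 1157. Alternatives are RLE, DESeq2 1.42.0, filters, replicate block, left-out libraries, thinning, background removal, GC and length correction (loess, span 0.3) and protein-coding transcripts. After background removal the genes were filtered and scaled anew (16524 tested), so values can also shift for genes far above the background. MCL1, PMAIP1, CYCS, BIRC2 and YWHAQ stood at 36.3 times the background or more in every library. The part of the new scaling in their values was not tested. Intervals and limits at 0 cover counting error only.

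The members and lists were chosen with earlier results of these data known. Named were all members, member transcripts with a mean of at least 50 counts or an adjusted p under 0.05, other BCL2 family genes, and up to 25 further listed genes past the test with a mean of at least 50 counts. Some listed genes are not reported here, and the list counts leave them out. Genes outside this rule, given as values, were named after their values were seen. The test was tried on simulated counts of these gene sums, with the same dispersion for every gene. At a dispersion of 0.05 it called 93 of 99 4-fold and 36 of 98 2-fold changes over 19767 genes, with 5 false calls. At 0.2, near the square of the common biological coefficient of variation of 0.450, it called 22 of 95 and 1 of 97 over 19618 genes, with 0 false calls. The spread differed by gene in these data (SE 0.10 for MCL1, 1.69 for BCL2L11), so these shares are not the power for a given gene. Pairs of libraries within a group differed beyond counting error (chi-square per degree of freedom 13.5 to 32.8).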

Additional observations from a re-analysis of the deposited data

How the results depend on the processing

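Members higher in BCSC numbered 4 and members over 2-fold higher 3. These became 3 and 1 with GC content and length corrected (the same with the replicate block added), and 2 to 5 and 1 to 4 with 1 library left out; no alternative called a member lower. Without BCSC 2 only BCL2L1 and MCL1 passed. Of the wider list 18 were higher and 7 lower, and the lower count was 4 over protein-coding transcripts only and 3 to 6, the higher count 14 to 20, with 1 library left out. Member transcripts past the threshold numbered 0, and 1 by DESeq2 (PMAIP1-203) and 1 with at least 10 counts in every library (MCL1-203, 1.95).

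Values turned sign with GC content and length corrected for AKT1 (−0.31), AKT2 (−0.29), JUN (−0.25), SFN (−0.33), YWHAE (0.19) and BCL2L2 (−0.032), and with the replicate block added for AKT1 (−0.31), AKT2 (−0.29), JUN (−0.26), SFN (−0.32) and YWHAE (0.21). Over protein-coding transcripts only MCL1 was −1.36. With background removed PMAIP1 was −0.023 and BCL2L11 −0.14. BCL2L11, at 0.00, was −0.075 with RLE size factors, −0.046 by DESeq2, −0.069 after thinning and −0.045 over protein-coding transcripts, and −0.68 to 0.61 with 1 library left out, where BCL2L11-204 ran from −0.82 to 0.40. The cause was not tested.

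The replicate numbers were not taken to pair the libraries, since deviations of same-numbered libraries correlated at 0.18, 0.016 and 0.22 and BCSC 2 correlated best with non-BCSC 1 (0.053). With the number as a replicate block 5 members passed (BID added, adjusted p = 0.0377), and 21 of the wider list were higher and 8 lower. Of all genes, 3813 were higher and 3236 lower with the block, 3136 and 2999 in the fit as reported, and 3215 and 5684 by DESeq2, which kept 48740 genes with a median of −1.19.

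Depth limits BBC3, BAK1 and BAD most, and the non-BCSC libraries were the shallower ones with the higher background. The 4 tested members over 55% GC share their direction with GC-rich genes as a whole.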
